A study of Drosophila melanogaster with 24 samples.

Results

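Most places that were accessible in the wild-type fly wing both before and well after metamorphosis began were also accessible in between. A minority were listed as accessible at the third larval instar (L3) and again 44 h after puparium formation (APF), and not at 24 h APF. These places are described here as the L3/44 h regions. They were chosen from the peak lists that the authors called on FAIRE-seq reads of wild-type wings: the L3, 24 h and 44 h lists were merged wherever peaks shared at least 1 bp, and a merged region was kept if it held an L3 peak and a 44 h peak and no 24 h peak. The rule kept 2504 of 51644 merged regions, or 4.85% (exact 95% interval 4.66% to 5.04%). The wild-type peaks chose the regions, so what those peaks show is a description, and the 3 peak lists of E93 mutant wings and the E93 ChIP-seq list are the measurements that the choice did not use.

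FAIRE-seq sequences the DNA that stays in solution after formaldehyde crosslinking because few nucleosomes are bound to it, and its peaks in flies mark mostly promoters, enhancers and other regulatory elements. At L3 the wing is a proliferating epithelial disc. After puparium formation, under pulses of the steroid hormone ecdysone, its cells pass through their final divisions, become postmitotic and differentiate into the hairs, veins and cuticle of the adult wing. E93, also called Eip93F, is a transcription factor that ecdysone induces in the pupa and that is needed for tissues to take on their adult form. A region that was closed at 24 h and a region whose 24 h signal fell short of the peak caller's limit cannot be told apart by a peak list.

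The E93 mutant wings carried E93-4 over the deficiency Df(3R)93FX2, were taken at the same 3 stages and had 2 replicates a stage. The ChIP-seq was made with an anti-GFP antibody on 24 h APF wings of flies with 1 GFP-tagged copy of E93 (yw/+; + ; Mi{MIC}Eip93F/+, or E93-GFSTF), in 2 replicates. The wild-type wings were of the strain w1118/y,w, hs-FLP; + ; + at L3 (3LW in the labels), 24 h APF and 44 h APF, with 3 replicates a stage. Replicates had been pooled before peaks were called, so each condition had 1 list, no difference between lists has a replicate error, and no test across samples was possible. Intervals given here are exact binomial intervals of a share, which cover counting error over regions and nothing else. The peaks of the E93 mutant L3 list are themselves named for 0 h APF, while the labels say 3LW, so a value for the mutant at L3 carries that doubt.

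The mutant lists held 28216, 26239 and 22786 peaks at L3, 24 h and 44 h, the ChIP-seq list 8477, and the wild-type lists 39525, 29731 and 28684. Depth computed back from the lists, on the assumption of a 120 Mb genome and 125 bp fragments, was 5.44, 4.68 and 2.79 M reads for the mutant stages, 20.6 M for the ChIP-seq and 9.57, 17.5 and 14.5 M for the wild-type stages. The wild-type 24 h list therefore came from the deepest of these FAIRE-seq libraries. Its coverage and that of the wild-type 44 h list had been scaled down to a common control. After scaling, the weakest peaks of the wild-type lists had similar pileups, 20.0, 20.8 and 20.9 at L3, 24 h and 44 h. The mutant libraries were the shallowest, so the lack of a mutant peak is a weaker statement than the lack of a wild-type one, and neither shows that a region was closed.

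The L3/44 h regions were mostly weak and of intermediate length. Their median length was 305 bp (quartiles 228 and 420), against 180 bp for L3-only, 188 bp for 44 h-only, 189 bp for 24 h-only, 277 bp for 24 h and 44 h, 341 bp for L3 and 24 h and 513 bp for all-stage regions, those with a peak at all 3 stages. Nearly all of them, 96.9%, were made of exactly 1 L3 and 1 44 h peak. A region merged from several peaks spans them all, so merging itself makes it longer than a single-peak region. Taken singly, the L3 and 44 h peaks of L3/44 h regions had median lengths of 208.5 and 208 bp. Those of L3-only and 44 h-only regions had 180 and 188 bp. Strength was taken as the place of a peak in its own list when sorted by −log10 p, written as the top percentage, so that a small value is a strong peak. The L3 peaks had a median place in the top 59.3% of their list (quartiles 41.9% and 78.3%), and the 44 h peaks in the top 78.4% of theirs (58.2% and 90.6%). In all-stage regions the same medians were 23.4% and 32.2%. On the authors' fold enrichment, the ratio of coverage to local background at the summit, the L3/44 h regions had a median of 2.77 at L3 and 2.74 at 44 h, against 4.83 and 5.76 in all-stage regions.

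Against single-stage regions the order was different at the 2 stages. The L3 peaks of L3/44 h regions ranked higher than those of L3-only regions, whose median was the top 72.9%. The 44 h peaks of L3/44 h regions ranked lower than those of 44 h-only regions, whose median was the top 70.9%. Ranks at L3 and 44 h are not set against each other, since the lists differ in length. The median −log10 q was 5.86 at L3 and 5.85 at 44 h. These values depend on depth and scaling, which differed between the lists, so they do not compare the stages. The 2 peaks of a region usually had their highest points close together: summits were at most 50 bp apart in 1225 regions (48.9%) and at most 250 bp apart in 2336 (93.3%), with a median of 52 bp. Strength at one stage went only loosely with strength at the other, with a Spearman's rho of 0.28 across the 2504 regions and 0.46 across the 14927 all-stage regions, a description over regions that share libraries.

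**Figure D1:**
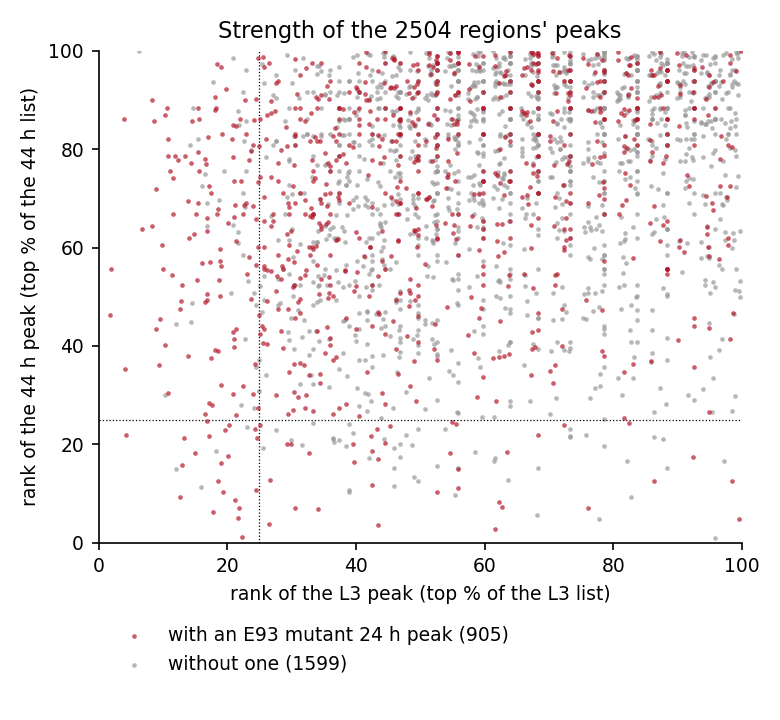
Rank of the L3 peak (x axis, top % of the L3 list) against the rank of the 44 h peak (y axis, top % of the 44 h list), 1 point for each of the 2504 L3/44 h regions, red for the 905 with an E93 mutant 24 h peak and grey for the 1599 without one; dotted lines mark the top 25%. Only 25 points lie in the top 25% of both lists, and points crowd toward the weak corner at the upper right.

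A strict choice left few of them. A −log10 q (the p-value adjusted by the peak caller) of at least 10 at both stages was reached by 259 L3/44 h regions (10.3%). Applying that limit to the 24 h list too gave 1025 regions of the pattern, and only 259 of these held no weaker 24 h peak. Of the 2504, 25 regions (1.00%) were in the strongest 25% of both lists. In 1372 regions (54.8%) both peaks lay in the weaker 50% of their lists.

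The L3/44 h pattern was rare among strong regions and common among weak ones. In the E93 mutant, merged in the same way from its own 3 lists, 9.08% (8.63% to 9.54%) of the 15452 regions with an L3 and a 44 h peak had no 24 h peak. In the wild type the share was 14.4% (13.8% to 14.9%) of 17431 regions. When the wild-type regions were sorted by the weaker of their L3 and 44 h peaks and cut into 4 equal groups, the share without a 24 h peak was 0.482% in the strongest group (21 of 4357), 4.36% in the next, 15.0% in the one after and 37.6% in the weakest (1639 of 4358). Lacking the middle stage was the least frequent way to lack 1 stage in both genotypes. Of regions with L3 and 24 h peaks, 23.1% in the mutant and 23.9% in the wild type lacked a 44 h peak. Of regions with 24 h and 44 h peaks, 14.7% in the mutant and 21.8% in the wild type lacked an L3 peak.

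The 10 regions whose weaker peak ranked highest are the strongest cases of the pattern by rank. Coordinates are those of the peak lists, counted from 1, on the build dm3 that the submitters' processing notes name. No annotation of that build was used, so no region is tied to a gene, exon or intron here. Of the 10, 5 lie on 3L, 4 on 2R and 1 on X.

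The best of them, X:5593451-5594290, is 840 bp long and had a pileup (coverage of extended reads at the summit) of 87 at L3, in the top 12.6%, and of 113 at 44 h, in the top 9.4%. Its summits were 18 bp apart, and the nearest wild-type 24 h peak began 229 bp outside it. The second, 2R:14742421-14742943, had pileups of 96 and 105 at L3 and 44 h, in the top 12.1% and 14.9%, with summits 13 bp apart and no 24 h peak within 1777 bp. Both regions were thus strong at both stages and stood clear of the next 24 h peak by more than 200 bp.

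The third, 2R:6432210-6433087, had pileups of 85 and 98.3 at L3 and 44 h, but its summits were 446 bp apart, so the L3 and 44 h signals peaked at different places within its 878 bp. At 3L:11526784-11527168 the pileups were 87 and 130 with summits 7 bp apart, and the nearest 24 h peak was 351 bp away. At 3L:5572742-5573221 they were 70 and 124, at 3L:12086873-12087565 79 and 94.8, and at 3L:14527201-14527869 66 and 105. The last 3 of the 10 were 2R:11626408-11627147, with pileups of 67 and 94.2 and summits 311 bp apart, 2R:10312706-10313212, with 65 and 97.6, and 3L:19192827-19193212, with 76 and 130. Over the 10 regions the L3 peak lay between the top 12.1% and 19.3% of its list, and the 44 h peak between the top 6.2% and 18.8%. Pileups were higher at 44 h than at L3 in all 10, on scales that differ between the lists.

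The L3/44 h regions lay close to places that were open at 24 h. The median distance to the nearest wild-type 24 h peak was 879.5 bp (quartiles 385 and 2016), against 1489 bp for L3-only regions and 980 bp for 44 h-only regions. A 24 h peak lay within 500 bp of 807 L3/44 h regions, or 32.2% (30.4% to 34.1%), of 21.5% of L3-only regions (20.9% to 22.2%) and of 29.5% of 44 h-only regions (28.3% to 30.7%). The intervals for L3/44 h and 44 h-only regions overlap at this distance. Within 1000 bp the shares were 54.0%, 38.7% and 50.8%. Only 28 L3/44 h regions (1.12%) had a 24 h peak within 50 bp, and 173 (6.91%) had none within 5000 bp. The longer L3/44 h regions reach further toward their neighbours than shorter regions do, and the part of length in these distances was not tested.

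**Figure D2:**
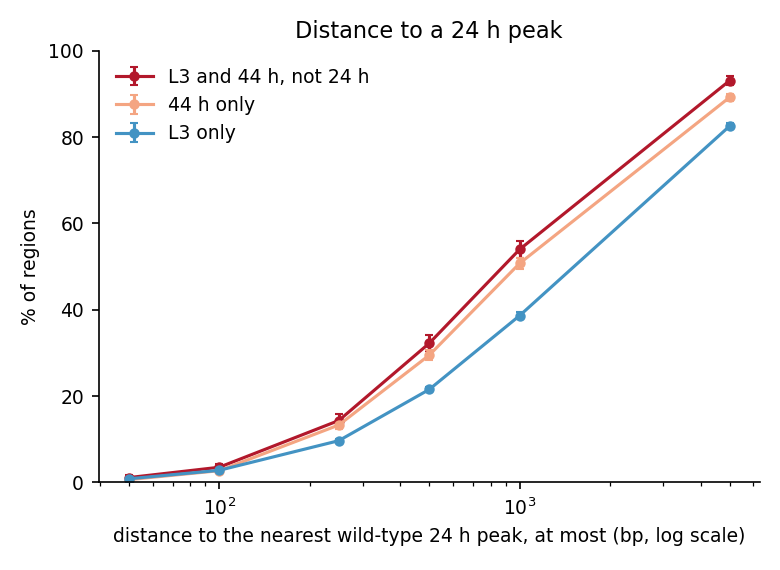
Share of regions (y axis, %) with a wild-type 24 h peak at most as far away as the distance on the x axis (bp, log scale) for L3/44 h, 44 h-only and L3-only regions, with exact 95% intervals. The L3/44 h curve stands at 32.2% by 500 bp and 54.0% by 1000 bp and the L3-only curve at 21.5% and 38.7%; by 50 bp the 3 curves stand at 1.12%, 0.653% and 0.842%.

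At the edge of the rule, small differences decided the class. The 3 regions with the closest 24 h peak had 1, 6 and 8 bp between them and it: X:4442322-4442674, with pileups of 22 at L3 and 34.2 at 44 h, 3R:1567500-1567807, with 25 and 24.4, and 2R:5155896-5156172, with 38 and 31.4. Each of the 3 had, at 1 of the stages, a peak no stronger than the top 95.8% of its list. None of them had a mutant peak at any stage. Just outside the rule stood 145 of 14844 all-stage regions in which L3 and 44 h peaks overlapped and no 24 h peak covered a base of that overlap, the 24 h peak touching the region elsewhere. The strongest of these were X:2887330-2888134, with pileups of 80, 44.6 and 101 at L3, 24 h and 44 h, 2R:18189963-18190914, with 63, 38.8 and 105, and X:1512087-1513582, with 55, 85.7 and 112. At 3L:23097783-23098046, 3R:10256312-10256750 and 3L:11038087-11038522 the 24 h peak covered 1, 3 and 3 bases of the overlap. The weakest peaks inside the rule were an L3 peak at X:15767224-15767693 with a −log10 q of 1.43 and a 44 h peak at X:2858586-2859193 with a −log10 q of 1.32.

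The mutant lists were not used to choose the regions. An E93 mutant L3 peak overlapped 1378 L3/44 h regions, or 55.0% (53.1% to 57.0%), where the background share was 47.1% of all merged wild-type regions and 29.0% of those without a wild-type 24 h peak. A mutant 24 h peak overlapped 905, or 36.1% (34.3% to 38.1%), against 43.5% of all merged regions and 17.3% of those without a wild-type 24 h peak. A mutant 44 h peak overlapped 1095, or 43.7% (41.8% to 45.7%), against 38.3% and 13.9%. Set beside every region, the L3/44 h regions were thus more often present in the mutant at L3 and 44 h and less often at 24 h, and set beside regions that also lacked a 24 h peak they were more often present at every stage, each by more than the counting interval.

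The other classes show where these shares stand. L3-only regions had a mutant L3, 24 h and 44 h peak in 33.2%, 18.5% and 7.32% of cases. For 44 h-only regions the shares were 5.26%, 5.13% and 19.0%. All-stage regions had 87.9%, 87.5% and 86.2%. The 36.1% of L3/44 h regions with a mutant 24 h peak stood above the 20.4% (19.1% to 21.7%) of regions whose wild-type peak was at 24 h only. It stood below the 68.9% of L3 and 24 h regions. In the L3/44 h regions the mutant share was lowest at the stage without a wild-type peak, and the other classes with peaks at 2 stages had the same order: L3 and 24 h regions had 75.4%, 68.9% and 33.1% at L3, 24 h and 44 h, and 24 h and 44 h regions had 10.8%, 29.7% and 41.7%.

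**Figure D3:**
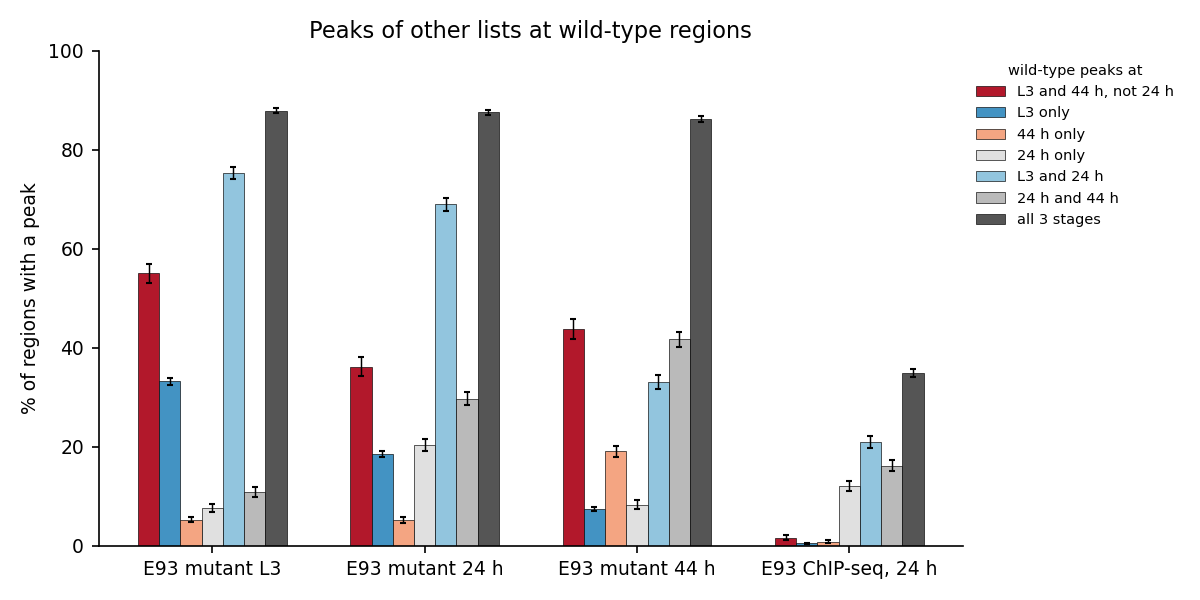
Share of wild-type regions (y axis, %) that a peak of the E93 mutant L3, 24 h or 44 h list or of the E93 ChIP-seq list overlaps, for the 7 classes of wild-type regions, with exact 95% intervals. L3/44 h regions stand at 55.0%, 36.1%, 43.7% and 1.56%, between the single-stage and the all-stage classes in the mutant lists and near 0 in the ChIP-seq list.

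Taken by combination, 650 L3/44 h regions (26.0%) had no mutant peak and 471 (18.8%) had one at every stage. Mutant peaks at L3 only were found at 455 (18.2%) and at 44 h only at 227 (9.07%). The wild-type combination itself, mutant peaks at L3 and 44 h without one at 24 h, was found at 267 regions, or 10.7% (9.48% to 11.9%). Mutant L3 and 24 h peaks were found at 185, 24 h and 44 h peaks at 130, and a 24 h peak alone at 119 (4.75%). The combinations differed in wild-type strength. Regions with mutant peaks at every stage had median wild-type ranks in the top 36.7% at L3 and 65.8% at 44 h and a median length of 381 bp, against 73.3%, 84.8% and 258.5 bp for those with no mutant peak. Of L3-only regions, 57.2% had no mutant peak, 2.95% one at every stage, 1.51% L3 and 44 h peaks and 6.69% a 24 h peak alone. For 44 h-only regions these shares were 75.5%, 0.599%, 1.09% and 1.94%, and for all-stage regions 3.44%, 75.5%, 3.45% and 1.44%. A mutant 24 h peak alone was found at 13.0% of 24 h-only regions.

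The mutant 24 h peaks at L3/44 h regions were modest but usually centred on them. Of the 905, 859 (94.9%) had their summit inside the region, and only 15 (1.66%) also reached a wild-type 24 h peak beside it. Their median pileup was 21 and their median fold enrichment 3.44, against 29 and 4.57 over the whole mutant 24 h list. A −log10 q of at least 10 was reached by 196 of the 905 (21.7%), and 27 (2.98%) were in the strongest 25% of that list. The shares depend on such limits in both directions. With only such q values counted in the mutant lists, 14.1%, 7.83% and 15.1% of L3/44 h regions had a mutant L3, 24 h and 44 h peak. Shares of the other classes under these q limits were not computed. Among the 259 regions whose wild-type L3 and 44 h peaks reached the limit the shares were 93.1%, 61.4% and 80.3%. Among the 1025 regions found with the limit in all 3 wild-type lists, most of which held a weaker 24 h peak, they were 94.9%, 77.9% and 86.3%. Regions of other classes that were strong at L3 had high mutant L3 shares too, but L3-only regions had a low 44 h share. With an L3 peak in the top 41.9% of its list, L3-only regions had 83.3%, 42.6% and 18.2% and all-stage regions 97.2%, 94.9% and 92.7%. L3/44 h regions in the same L3 range had 89.97%, 56.5% and 64.97%. That range limits the rank of the L3 peak only, whereas the 259 regions had to reach a q limit at both L3 and 44 h.

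Because L3/44 h regions were stronger at L3 than L3-only regions, the mutant 24 h shares were also compared at matched rank. The L3/44 h regions were cut into 4 groups of about equal size by the rank of their wild-type L3 peak, and L3-only regions were placed in the same rank ranges. From the strongest to the weakest group, a mutant 24 h peak overlapped 56.5%, 34.1%, 30.1% and 23.6% of L3/44 h regions, against 42.6%, 24.1%, 15.9% and 11.4% of L3-only regions. The intervals did not overlap in any of the 4 groups; in the strongest they were 52.5% to 60.4% and 40.3% to 45.0%. All-stage regions in the same L3 rank ranges had 94.9%, 72.1%, 62.1% and 54.1%. By the rank of the 44 h peak the shares were 42.5%, 40.4%, 32.0% and 29.7% of L3/44 h regions, against 4.83%, 4.82%, 5.43% and 5.88% of 44 h-only regions. By rule, single-stage regions lack the second wild-type peak that L3/44 h regions have, so the classes were matched on a single peak only.

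Length was not matched in those groups. A further comparison used a single base, the wild-type summit, over whole classes and without matching rank. No comparison matched rank and length together. The L3 summit lay inside a mutant 24 h peak in 30.8% of L3/44 h regions (29.0% to 32.6%) and in 14.9% of L3-only regions (14.4% to 15.5%). The 44 h summit lay inside one in 27.1% of L3/44 h regions (25.3% to 28.9%) and in 3.90% of 44 h-only regions (3.40% to 4.44%). The L3 summit lay inside a mutant 44 h peak in 37.6% of L3/44 h regions and in 5.60% of L3-only regions. Those classes differ by rule in having a wild-type 44 h peak, so this contrast is not like the one at 24 h.

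**Figure D4:**
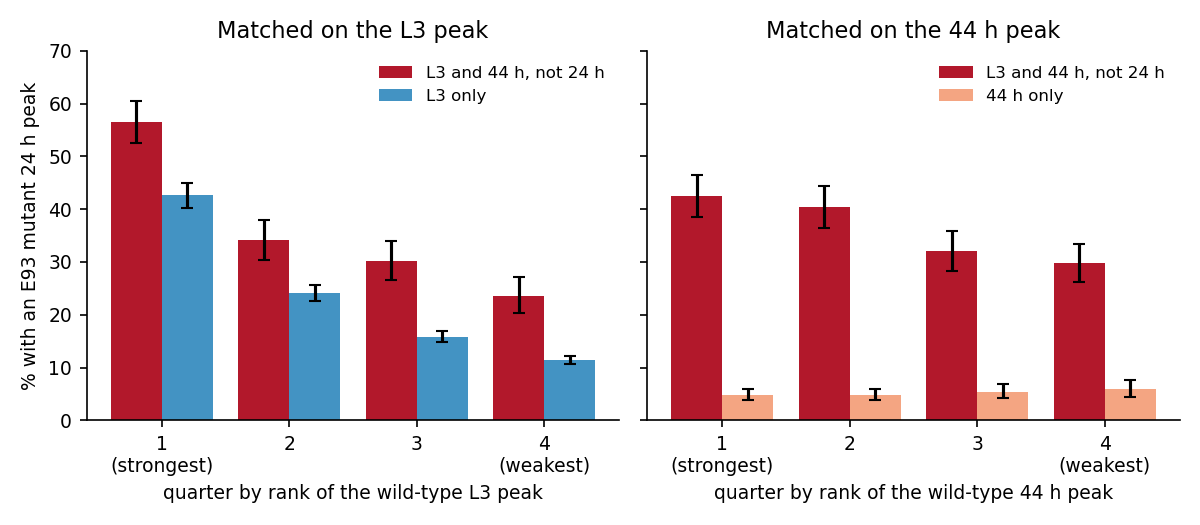
Share of regions (y axis, %) with an E93 mutant 24 h peak, by 4 groups of rank of the wild-type L3 peak (left, L3/44 h against L3-only regions) or of the wild-type 44 h peak (right, L3/44 h against 44 h-only regions), with exact 95% intervals. L3/44 h regions are higher in every group, from 56.5% against 42.6% in the strongest to 23.6% against 11.4% in the weakest on the left. By rule, the single-stage regions lack the second wild-type peak that L3/44 h regions have.

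Whether the missing 24 h peak recurred without E93 was examined within the mutant lists. Of the 738 L3/44 h regions with both a mutant L3 and a mutant 44 h peak, 63.8% (60.2% to 67.3%) had a mutant 24 h peak as well. The same share was 95.6% in all-stage regions and 91.6% over all merged regions with both mutant peaks. In L3-only regions with both mutant peaks it was 66.2% (62.6% to 69.7%), which overlaps the interval of the L3/44 h regions. In the 93 44 h-only regions with both it was 35.5% (25.8% to 46.1%). A mutant 24 h peak was thus missing more often at L3/44 h regions than at all-stage regions. It was missing about as often at L3-only regions, and more often still at 44 h-only regions.

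The difference from regions with a wild-type 24 h peak was also present between regions of like rank in the mutant lists. Mutant regions with L3 and 44 h peaks were cut by the weaker of the 2 mutant peaks into rank ranges that divide those at L3/44 h regions into 4 about equal groups. From strongest to weakest, 16.8%, 36.9%, 40.7% and 53.6% of the mutant regions at an L3/44 h region lacked a mutant 24 h peak, against 1.04%, 8.05%, 15.2% and 18.8% of mutant regions at a wild-type 24 h peak. The intervals did not overlap in any group, and in the strongest they were 11.6% to 23.1% and 0.840% to 1.28%. The strongest range is wide, and regions at wild-type 24 h peaks reach higher ranks within it. L3-only and 44 h-only regions were not compared in this way.

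**Figure D5:**
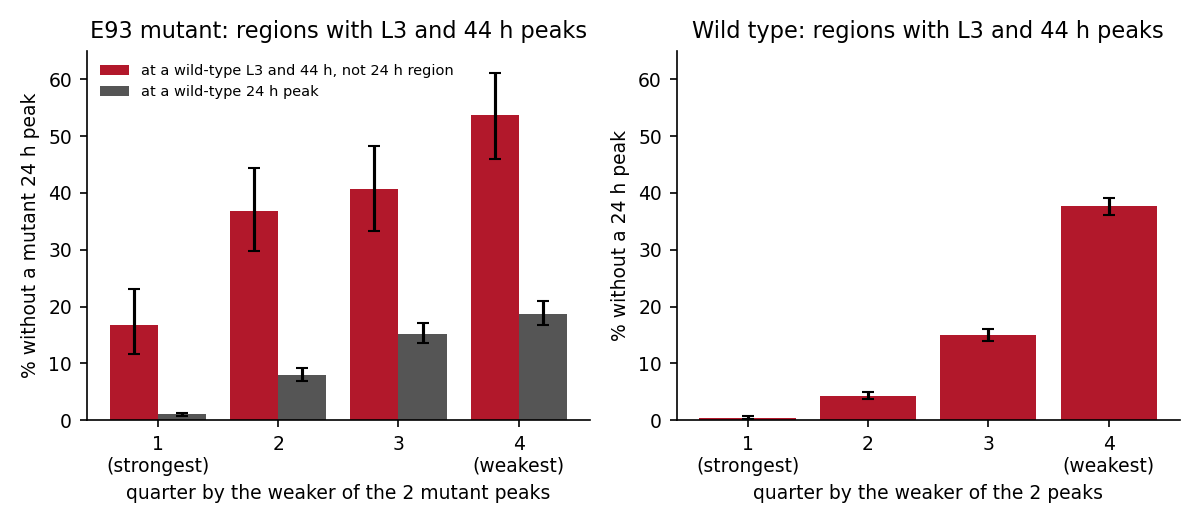
Left, share of E93 mutant regions with L3 and 44 h peaks that lack a mutant 24 h peak (y axis, %) by 4 groups of the weaker mutant peak's rank, for mutant regions at a wild-type L3/44 h region (red) and at a wild-type 24 h peak (grey). Right, share of wild-type regions with L3 and 44 h peaks that lack a 24 h peak, in 4 equal groups by the weaker peak; the share climbs from 0.482% to 37.6% as peaks get weaker, and bars are exact 95% intervals.

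The mutant nevertheless had its own set of regions of this pattern. Merging the 3 mutant lists gave 37340 regions, of which 1403 (3.76%) had an L3 and a 44 h peak and no 24 h peak. Of these, 266 (19.0%) overlapped a wild-type L3/44 h region, while 768 (54.7%) overlapped a wild-type 24 h peak and 67 (4.78%) overlapped no wild-type peak. Seen from the wild type, 265 of the 2504 L3/44 h regions (10.6%) overlapped a mutant region of the pattern. Most regions of the pattern in one genotype were therefore not of the pattern in the other.

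Among the 10 strongest L3/44 h regions, 7 had mutant peaks at all 3 stages and 3 had mutant L3 and 44 h peaks and none at 24 h. At X:5593451-5594290 the mutant peaks had pileups of 57, 37 and 37 at L3, 24 h and 44 h, in the top 19.1%, 36.0% and 30.7% of their lists. At 2R:6432210-6433087 they had 59, 32 and 39, and at 3L:5572742-5573221 59, 21 and 36. The mutant 24 h peak was the lowest in rank of the 3 in each of these regions.

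The regions that kept the gap in the mutant were 2R:14742421-14742943, with mutant pileups of 57 at L3 and 24 at 44 h, 3L:11526784-11527168, with 79 and 48, and 2R:11626408-11627147, with 58 and 18. In the second of these the mutant peaks were in the top 15.8% and 27.3% of their lists, so both flanking stages were well above the weakest peaks in both genotypes. By wild-type rank, these 3 regions are the strongest cases in which the gap at 24 h was seen in both sets of lists. In the mutant 44 h list, the peaks of the first and the third were only in the top 46.9% and 61.9%.

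The strongest regions without any mutant peak ranked lower: 3L:8697071-8697334, with wild-type pileups of 45 at L3 and 71.8 at 44 h, was 57th in the order by weaker peak, 3L:15994201-15994600, with 40 and 94.8, was 90th, and 3L:2892088-2892284, with 41 and 64.9, was 115th. Those with a mutant peak at 24 h alone began still lower, at the 214th place, with 3R:26138543-26138837, whose mutant 24 h pileup was 28. The next were 2L:5113789-5113989 and 3L:6877282-6877461, with mutant 24 h pileups of 30 and 19. The 24 h peak appeared in the mutant at these 3 places while the L3 and 44 h peaks did not, in libraries of lower depth.

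An E93 ChIP-seq peak overlapped 39 of the 2504, or 1.56% (1.11% to 2.12%), against 14.5% of all merged regions and 0.655% of those without a wild-type 24 h peak. L3-only regions had 0.468% (0.368% to 0.588%), 44 h-only regions 0.780% (0.565% to 1.05%) and all-stage regions 34.8%. The share was 3.09% among the 259 regions with strong L3 and 44 h peaks. It was 11.9% among the 1025 regions found with the q limit in all 3 wild-type lists, most of which held a weaker 24 h peak. The ChIP-seq was made at 24 h APF, the stage at which the L3/44 h regions had no wild-type peak. Peaks at the 39 regions were weak for the list, with a median fold enrichment of 2.52 against 3.01, and a single L3/44 h region (0.0399%) had a ChIP-seq peak whose −log10 q reached 10. In the strongest of 4 groups by weaker wild-type peak 24 of 626 regions (3.83%) had a ChIP-seq peak, and in the weakest 1 of 626 (0.160%).

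Of the 3 strongest with a ChIP-seq peak, 2R:6432210-6433087 had a ChIP-seq fold enrichment of 2.43 and 3L:482072-482935 of 2.09. Their L3 and 44 h summits were 446 and 587 bp apart. At X:13290009-13290422 the ChIP-seq fold enrichment was 3.30, and the region had mutant pileups of 98, 73 and 54 at L3, 24 h and 44 h and wild-type pileups of 136 at L3 and 71.8 at 44 h. All 3 had mutant peaks at every stage.

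The regions were spread over the chromosomes much as all merged regions were. X held 403 of them, or 16.1% (14.7% to 17.6%), against 18.1% of all merged regions. Arm 2L held 433 (17.3%), 2R 505 (20.2%), 3L 547 (21.8%) and 3R 612 (24.4%). In each 100 merged regions there were 4.30 L3/44 h regions on X (3.90 to 4.73), the lowest among the large arms, and 5.25 on 2R (4.81 to 5.71), the highest, and these intervals do not overlap. Over X and the large arms the mutant 24 h share ran between 33.7% on 2R and 39.5% on 2L.

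Chromosome 4 held 4 L3/44 h regions among 155 merged regions, and none of the 4 had a mutant 24 h peak. They were 4:926415-926575, with pileups of 39 and 40.5 at L3 and 44 h, 4:422851-423001, with 37 and 37.0, 4:128390-128534, with 25 and 25.1, and 4:567628-567925, with 23 and 30.7. Only the second had a mutant peak, at L3 with a pileup of 24. All 4 were shorter than 300 bp, with the nearest 24 h peak between 284 and 29007 bp away.

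The most isolated regions lay far from any 24 h peak. X:17894807-17894976 had none within 69962 bp, and had mutant peaks at all 3 stages with pileups of 19, 17 and 14, beside wild-type pileups of 29 at L3 and 25.8 at 44 h. X:17912761-17913017, on the same stretch of X, had none within 64841 bp, and 2L:17172376-17172722 none within 64977 bp; both had a mutant peak at L3 only. At X:17894807-17894976 a 24 h peak was thus listed in the mutant in a stretch of X where the wild type had none. That peak was weak, in the top 85.4% of the mutant 24 h list, and the wild-type 44 h peak there was in the top 93.8%.

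The longest regions were 3L:17946633-17948163 (1531 bp), 3R:23419051-23420456 (1406 bp) and 3R:17975350-17976728 (1379 bp). In the second the mutant 24 h peak had a pileup of 73, in the top 14.7% of its list, against mutant pileups of 45 at L3 and 61 at 44 h and wild-type pileups of 60 at L3 and 123 at 44 h. There the mutant 24 h peak ranked above both other mutant peaks, and the wild-type L3 and 44 h summits were 591 bp apart. In the third, the mutant had peaks at 24 h and 44 h with pileups of 21 and 28, and the wild-type L3 pileup of 26 was weak beside the wild-type 44 h pileup of 106.

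Neighbouring regions were mostly of other classes. The next merged region on at least 1 side was L3-only for 50.0% of the L3/44 h regions and all-stage for 48.4%. It was another L3/44 h region for 13.3% (12.0% to 14.7%). L3-only, all-stage and L3/44 h regions made up 30.6%, 28.9% and 4.85% of all merged regions. With a neighbour on each side, common classes are met often by their number alone, and what class size gives was not tested. Of L3-only regions 70.4% were next to their own class and of 44 h-only regions 36.3%, classes that are also more numerous.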

How the data were processed

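Peak lists of wild-type and E93 mutant FAIRE-seq wings (3 and 2 replicates a stage) and of E93-GFSTF ChIP-seq (2 replicates) were used, each called by the authors on pooled replicates. The submitters' processing notes name Bowtie2 2.2.8, SAMtools 1.2 and 1.3.1, Picard 2.2.4, bedtools 2.25.0, MACS2 and the build dm3, without roles. The deposited lists give a pileup, which is a coverage signal, a fold enrichment, which is a ratio to local background, and a −log10 p. They also give a −log10 q, a score that the authors' peak caller adjusted over the list. They served to rank and filter peaks within a list. Deposited control reads of genomic DNA run to 25286766 on 2R, where the furthest peak of any list ends at 21140913, so control and peaks may be on different releases. How this touches local background was not tested. RNA-seq samples were not analysed here.

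Lists were merged at an overlap of 1 bp. Where several peaks of a list lay in a region, the strongest by −log10 p stood for it. Distances count the bases between region and peak. Shares carry exact (Clopper-Pearson) 95% intervals. Members, rules for named regions and alternatives were chosen with earlier results of these data known. Named were the 10 L3/44 h regions with the best weaker rank, the 3 best with mutant peaks in all lists, in none, at 24 h alone and with a ChIP-seq peak, the 3 furthest from and closest to a 24 h peak, the 3 longest, all on chromosome 4, and 3 just outside the rule with no covered base and 3 with the fewest above 0. The alternatives were stricter q values, equal list sizes, distance, overlap and summit limits, arm 2L, rank by pileup and single summits; the single-summit comparison between classes and the ranks within the mutant were added after the data were seen. Merging and overlap were tested on simulated peaks. The tools were Python 3.11.15, numpy 2.4.6, pandas 2.3.3, scipy 1.17.1 and matplotlib 3.10.9.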

Additional observations from a re-analysis of the deposited data

How the results depend on the processing

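The number of L3/44 h regions was 259 where the −log10 q had to reach 10 at L3 and 44 h, where their 0.798% share of merged regions, median length of 410 bp, median ranks in the top 74.2% at L3 and 71.0% at 44 h, share of 41.3% with a 24 h peak within 500 bp and mutant L3, 24 h and 44 h shares of 93.1%, 61.4% and 80.3% and ChIP-seq share of 3.09% also moved. Wherever a list was shortened by q value or size, ranks were taken anew within the shortened list. At the q limit these lists held 15640 L3 and 17952 44 h peaks. Their rank percentages are therefore not on the scale of the full lists and do not mean weaker peaks. With that limit in all 3 wild-type lists the number was 1025, most of them with a weaker 24 h peak. The values were then 3.95%, 447 bp, 67.9%, 67.8%, mutant shares of 94.9%, 77.9% and 86.3%, 11.9% in the ChIP-seq list and 17.7% on X. At an equal size of 28684 peaks a list the share was 4.32%, the length 326 bp, the ranks 66.0% and 74.3%, the mutant shares 66.1%, 43.2% and 50.2% and the ChIP-seq share 2.14%. Without regions that had a 24 h peak within 500 bp the share was 3.29%, the L3 rank 61.9%, the mutant 44 h share 40.6% and the ChIP-seq share 1.00%. Requiring the L3 and 44 h peaks to share 50% of each left 1525 regions, 2.95%, with a median length of 251 bp and an L3 rank of 55.9%. Summits at most 250 bp apart gave 4.52% and 293.5 bp. Arm 2L alone gave a share of 4.61%, a 44 h rank of 80.6%, a mutant 24 h share of 39.5% and a ChIP-seq share of 0.924%. With a wild-type summit inside the mutant peak the mutant shares were 51.8%, 33.2% and 41.2%, and with a −log10 q that reached 10 in the mutant and ChIP-seq lists they were 14.1%, 7.83% and 15.1%, with 0.0399% for the ChIP-seq. Of 89 values, 49 left the counting interval of the value reported (a count, a range of 1.5 times) and 40 did not. An alternative added after the data were seen, overlaps of an L3 and a 44 h peak without a 24 h base, gave 3100 overlaps.

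The mutant 24 h share was below the mutant L3 and 44 h shares under every one of these alternatives. No paired analysis was possible because replicates were pooled before peaks were called, which also kept any replicate from being left out, and the mutant lists, from the shallowest libraries, limit what the absence of a mutant peak can show.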

Other observations

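The 100 kb window with the most of them, 3R:1401508-1492479, held 19 among 96 merged regions, of which 8, 5 and 5 had a mutant L3, 24 h and 44 h peak. The next, 3R:19243209-19341241, held 17 among 87, with 12, 9 and 8. In 3L:719233-819151 all 14 L3/44 h regions, among 105 merged regions, had a mutant L3 peak and 10 had a mutant 44 h peak, while 2 had a mutant 24 h peak. These windows were picked for their number of regions, so the numbers are descriptions.

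The strongest mutant 24 h peaks at L3/44 h regions, singled out after their values were seen, were of different kinds. At 2R:20654880-20655074 the mutant 24 h peak had a pileup of 115, in the top 3.65% of its list, beside a mutant L3 pileup of 18 and wild-type pileups of 30 at L3 and 27.9 at 44 h. A wild-type 24 h peak lay 38 bp away and the same mutant peak overlapped it. At 3L:21826040-21826184 the mutant 24 h pileup was 99, again in a peak that also overlapped a wild-type 24 h peak, 51 bp away. At 3R:19251062-19251622 no such neighbour was reached: the mutant pileups were 64, 91 and 40 at L3, 24 h and 44 h, beside wild-type pileups of 97 at L3 and 29.3 at 44 h, and the nearest wild-type 24 h peak was 842 bp away.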
